A study of Rattus norvegicus with 12 samples.

Results

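The genes described here are the chaperones and proteasome subunits of the rat pituitary and hypothalamus. They were taken by symbol, as all probes of the array whose platform gene symbol begins with any of 4 stems. The stems were Hsp followed by a digit or by a, b, d or e, Dnaj, Cct followed by a subunit number, and Psm followed by a letter from a to g. Other symbols that begin with Hsp were not taken. The rule found 111 genes on 114 probes, among 13337 named genes and 22523 probes in all. Of these genes, 45 encode chaperones of the cytosol and nucleus, 13 chaperones of the endoplasmic reticulum (ER), 10 chaperones of mitochondria, and 42 encode proteasome subunits, activators or assembly factors. Psmc3ip, a meiotic recombination factor, matched the rule by its symbol and is kept apart.

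Chaperones of the HSP70 family bind unfolded protein, and J proteins (the Dnaj genes) hand them their clients and drive their ATPase cycle. HSP90 chaperones finish the folding of signalling proteins and hold the aryl hydrocarbon receptor, the receptor for dioxins, in its unliganded form. In the ER the same families fold secreted proteins, a heavy load in hormone-secreting cells, while the proteasome degrades ubiquitin-tagged proteins and, with its interferon-inducible subunits, makes peptides for antigen presentation.

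The study measured gene expression on Illumina RatRef-12 arrays in 4 groups of 3 arrays. They were pituitaries of male Wistar rats whose dams had received the dioxin TCDD, pituitaries of rats whose dams had received vehicle, and the hypothalami of the same 2 kinds of offspring. Dams were dosed by mouth on gestation day 15, pups were taken on postnatal day 70, and 250 ng of total RNA was labelled per array. The dose of TCDD is given as 1 µg per kg in the series text and as 1 mg per kg in corn oil in the sample protocols, so no value is tied to a dose. No genetic change is named for any group. The stated aim was to find genes whose lasting change goes with altered sexual behaviour. Codes in the sample titles recur in both tissues, but the labels do not say that they mark animals or litters, so the p-values speak only of array-to-array spread, which may be partly technical.

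Pituitary arrays detected 9934 to 10371 probes and hypothalamus arrays 10852 to 11438 (detection p under 0.05), and 92 to 95 and 96 to 99 of the 114 member probes. The tissue labels were checked against markers: all 8 tested markers of pituitary endocrine cells were higher in pituitary on both sets of arrays, with a summed signal of 94727 to 107536 on vehicle pituitary arrays against 3192 to 8299 on vehicle hypothalamus arrays. Markers of neurons (9 of 10), astrocytes (5 of 5) and oligodendrocytes (5 of 5) were lower in pituitary on vehicle arrays. In such bulk RNA, fewer cells of a type and less RNA per cell cannot be told apart.

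Of the 114 member probes, 88 were detected on all 12 arrays, 14 on 1 to 11 arrays and 12 on none. The undetected probes were those of Hspa1b (a stress-induced HSP70), Hspb2, Hspb7, Hspb9, Dnajb8, Dnajb12, Dnajc5b, Dnajc5g and Psma8 (a testis-type 20S subunit), both probes of Hsp90ab1 and 1 of the 2 probes of Dnajb11. These probes were not well above background, which sets only an upper bound on their signal. It does not show that their genes were little expressed, since the other probe of Dnajb11 was detected and tested. No probe of the platform table was paired with Hspa1a, Hspa8 or Dnajc12. A probe entered a test if detected on at least 3 arrays of that fit, which left 100 probes for the comparison of tissues, 94 for TCDD in pituitary and 99 for TCDD in hypothalamus. Psmc6 and Hspa12b were detected on no pituitary array and Hspa12a, Dnajb13, Dnajc16 and Dnajc28 on at most 2, so these passed through hypothalamus arrays and their tissue differences were in part fixed by the filter. Dnajc8 likewise was detected on 4 pituitary and 2 hypothalamus arrays.

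The comparison of the tissues asks which parts of the protein-folding and degradation machinery a gland and a brain region express at different levels. With limma at an adjusted p under 0.05 and all 12 arrays normalized together, 56 of 100 member probes differed on TCDD arrays (34 higher and 22 lower in pituitary) and 63 on vehicle arrays (41 higher and 22 lower). Over all 12071 probes the shares called were 64.6% and 64.1%, of which 35.8% and 35.6% were higher and 28.8% and 28.5% lower, so the members as a whole were called about as often as any probe. On vehicle arrays 12 members were at least 2-fold higher and 2 at least 2-fold lower, against 10.2% and 12.2% of all probes. The calls overlapped between the 2 sets of arrays, which share no array: 49 members were called in the same direction in both, 31 higher and 18 lower, and 0 in opposite directions. That was 87.5% of the TCDD-array calls and 77.8% of the vehicle-array calls, against 87.2% and 87.8% over all probes.

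The number of higher calls depended on how arrays were scaled. Median scaling moved the median of all probes to -0.10 on TCDD arrays and -0.04 on vehicle arrays (log2, pituitary minus hypothalamus), against 0.10 and 0.09 with quantile normalization, and the share of member calls that were higher fell to 39.6% and 45.3%, against 60.7% and 65.1%. Calls were therefore also counted where quantile normalization, median scaling, cyclic loess and the authors' normalized table all called the same direction. The authors normalized each tissue on its own, so their table sets levels across separate normalizations here. That left 21 higher and 22 lower on TCDD arrays (22.9% and 27.6% of all probes, 50.5% together) and 24 higher and 21 lower on vehicle arrays (26.1% and 27.2% of all probes, 53.3% together).

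**Figure D1:**
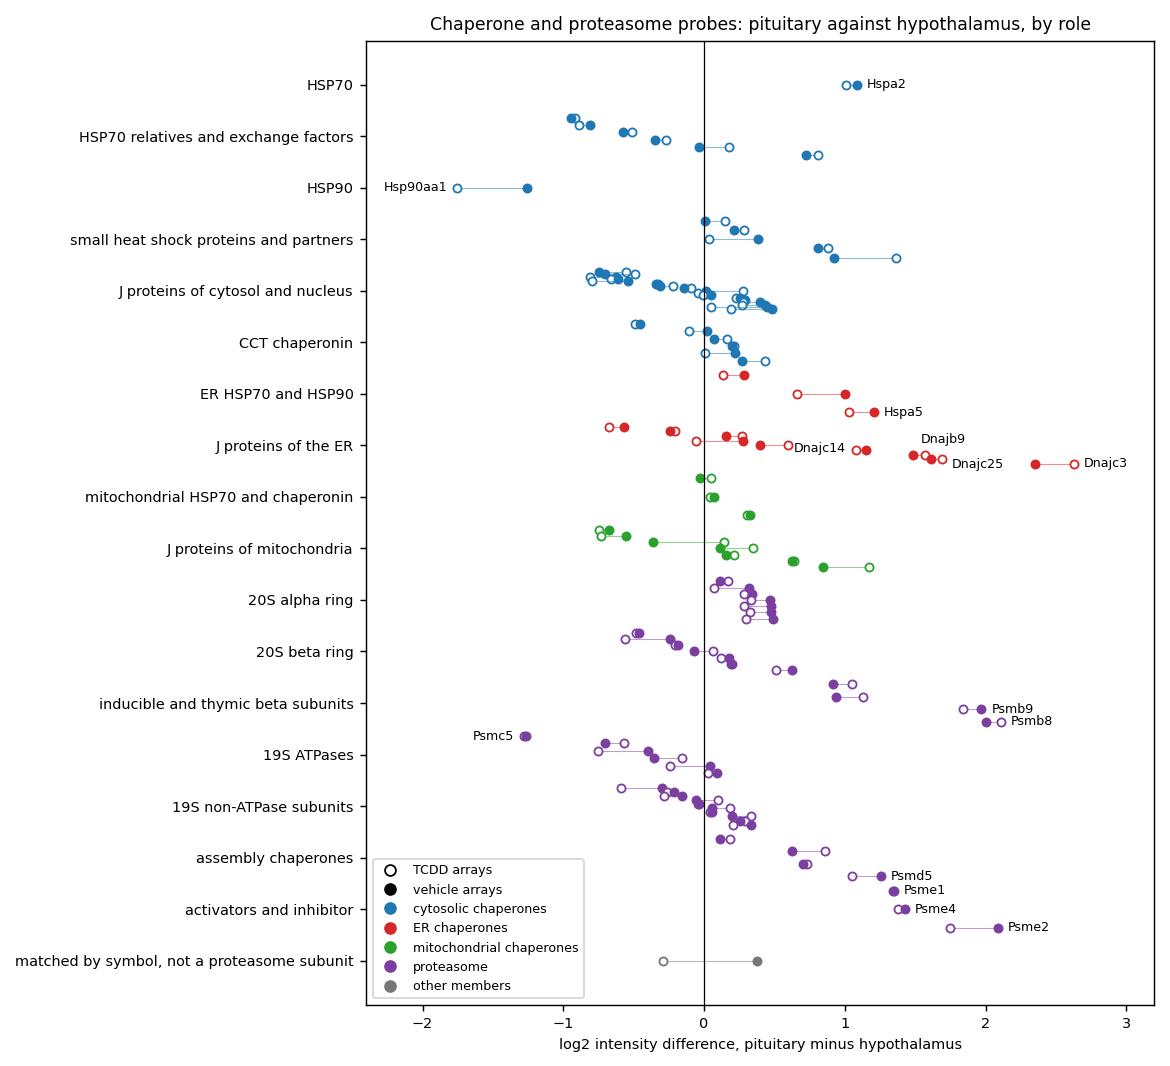
Each member probe tested is a pair of circles joined by a line, placed by its log2 intensity difference (pituitary minus hypothalamus) on TCDD arrays (open) and vehicle arrays (filled), in rows by role and coloured by compartment. Named probes differ at least 2-fold on vehicle arrays, and they gather in the ER J proteins, the inducible beta subunits and the proteasome activators on the right, with Hsp90aa1 and Psmc5 on the left.

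Chaperones of the ER were the compartment with the highest median difference. On vehicle arrays 8 of 12 tested ER probes were higher in pituitary and 1 was lower, and their median log2 difference was 0.70, against 0.09 over all probes and 0.02, 0.09 and 0.19 for cytosolic chaperones, mitochondrial chaperones and proteasome. On TCDD arrays 7 were higher and 1 lower, with a median of 0.63. Among all probes 35.8% were higher and 28.8% lower on TCDD arrays, and 35.6% and 28.5% on vehicle arrays. Under the 4 scalings the ER median lay between 0.33 and 0.63 on TCDD arrays and between 0.39 and 0.70 on vehicle arrays, and 5 higher calls and the 1 lower call held under all of them on TCDD arrays and 6 and 1 on vehicle arrays. With no detection filter the vehicle-array median was 0.34, and over probes detected on all arrays 1.00.

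Hspa5 encodes BiP, the HSP70 of the ER lumen and the sensor-binding chaperone of the unfolded protein response. Its probe read 13.83, 13.81 and 13.74 in TCDD pituitaries and 13.92, 13.79 and 13.85 in vehicle pituitaries, against 12.75, 12.67 and 12.87 in TCDD hypothalami and 12.46, 12.68 and 12.79 in vehicle hypothalami (log2 intensity, all arrays normalized together). No pituitary array overlapped a hypothalamus array, a separation seen for 70.3% of all probes on TCDD arrays and 66.6% on vehicle arrays. The log2 tissue difference was 1.03 ± 0.101 on TCDD arrays and 1.21 ± 0.101 on vehicle arrays, or 2.04-fold and 2.31-fold, with adjusted p of 1.63e-06 and 3.88e-07. Hsp90b1 encodes GRP94, the HSP90 of the ER, and read 12.29, 12.29 and 12.39 in TCDD pituitaries and 12.68, 12.33 and 12.29 in vehicle pituitaries, against 11.76, 11.48 and 11.74 in TCDD hypothalami and 11.37, 11.29 and 11.65 in vehicle hypothalami. Every pituitary array was above every hypothalamus array here too, with a smaller gap. By limma the difference (SE) came to 0.66 ± 0.132 on TCDD arrays and 1.00 ± 0.132 on vehicle arrays, or 1.58-fold and 2-fold, with adjusted p of 0.000706 and 2.5e-05. The TCDD-array call of Hsp90b1 was lost under median scaling (0.38, adjusted p 0.0677). The third ER member of these families, Hspa13, did not pass (0.13 and 0.28, adjusted p 0.432 and 0.1).

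Among the J proteins of the ER, Dnajc3 (p58IPK, which dampens the kinase arm of the unfolded protein response) had the largest tissue difference of all members. It read 12.15, 12.11 and 12.13 in TCDD pituitaries and 12.05, 12.14 and 12.04 in vehicle pituitaries, against 9.43, 9.54 and 9.53 in TCDD hypothalami and 9.67, 9.83 and 9.68 in vehicle hypothalami. The pituitary arrays lay together more than 2 log2 units above the hypothalamus arrays. Pituitary minus hypothalamus gave 2.63 ± 0.0845 on TCDD arrays and 2.35 ± 0.0845 on vehicle arrays, or 6.19-fold and 5.09-fold, with adjusted p of 6.11e-11 and 1.63e-10. Dnajb9 (ERdj4, a BiP partner in ER-associated degradation) read 10.50, 10.55 and 10.45 in TCDD pituitaries and 10.51, 10.46 and 10.50 in vehicle pituitaries, against 8.96, 8.80 and 9.05 in TCDD hypothalami and 8.86, 8.99 and 9.18 in vehicle hypothalami. It was high on all 6 pituitary arrays and low on all 6 hypothalamus arrays. The log2 tissue difference was 1.57 ± 0.101 on TCDD arrays and 1.48 ± 0.101 on vehicle arrays, or 2.96-fold and 2.79-fold, with adjusted p of 3.22e-08 and 5.73e-08. Dnajc25, counted with the ER J proteins, differed by 1.69 ± 0.116 and 1.62 ± 0.116 on TCDD and vehicle arrays, and Dnajc14, which takes part in the export of membrane receptors, by 1.08 ± 0.146 and 1.15 ± 0.146 (SE, adjusted p at most 3.03e-05 for these 4 values). At the lowest over the 4 scalings, Dnajc25 differed by 0.63 and 0.60 and Dnajc14 by 0.70 and 0.75.

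Not every ER J protein was higher in pituitary. Dnajc10 (ERdj5, a disulfide reductase that opens misfolded proteins for degradation) was lower, at 9.92, 9.81 and 9.86 in TCDD pituitaries and 9.98, 9.82 and 9.89 in vehicle pituitaries, against 10.66, 10.30 and 10.66 in TCDD hypothalami and 10.30, 10.37 and 10.72 in vehicle hypothalami. Its difference was -0.67 ± 0.129 and -0.57 ± 0.129 (SE, adjusted p 0.00053 and 0.00191). Dnajc16 and Dnajb14 did not pass on either set of arrays, and the detected probe of Dnajb11 passed on vehicle arrays (0.28) and not on TCDD arrays (-0.06). The Dnajb11 call did not hold under all 4 scalings (0.08 at the lowest, adjusted p up to 0.63).

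Some promoters of the ER members hold a sequence feature that the rule did not use. The ER stress element, the binding sequence of ATF6 with NF-Y, was searched as CCAAT and CCACG separated by any 9 bases, on both strands, in windows of 300 bases (250 before to 50 after the start; RefSeq, GRCr8). It occurs in 22 of 33469 promoters (0.0657%). Promoters were found for 96 of the 111 member genes, and 3 of 13 ER chaperone promoters hold it, against 0 of 36 cytosolic, 0 of 8 mitochondrial and 0 of 38 proteasome promoters. All 3 are shown. They belong to the ER members of the HSP70 and HSP90 families that were called higher and to the J protein with the largest difference. Capitals mark the element, which lies on each strand of Hsp90b1. The windows of 250 bases before the start are chr3:38452766-38453015, plus strand, for Hspa5, chr7:23012294-23012543, minus strand, for Hsp90b1, and chr15:102432417-102432666, plus strand, for Dnajc3.
Hspa5: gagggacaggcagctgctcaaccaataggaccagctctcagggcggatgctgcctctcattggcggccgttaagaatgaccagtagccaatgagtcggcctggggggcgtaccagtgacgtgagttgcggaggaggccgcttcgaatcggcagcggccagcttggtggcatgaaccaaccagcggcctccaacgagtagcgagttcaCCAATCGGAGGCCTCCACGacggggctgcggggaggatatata
Hsp90b1: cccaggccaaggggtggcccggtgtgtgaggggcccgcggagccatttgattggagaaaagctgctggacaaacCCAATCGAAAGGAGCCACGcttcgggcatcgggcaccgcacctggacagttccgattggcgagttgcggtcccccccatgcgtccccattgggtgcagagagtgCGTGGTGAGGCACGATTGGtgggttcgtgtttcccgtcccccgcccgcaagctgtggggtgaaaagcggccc
Dnajc3: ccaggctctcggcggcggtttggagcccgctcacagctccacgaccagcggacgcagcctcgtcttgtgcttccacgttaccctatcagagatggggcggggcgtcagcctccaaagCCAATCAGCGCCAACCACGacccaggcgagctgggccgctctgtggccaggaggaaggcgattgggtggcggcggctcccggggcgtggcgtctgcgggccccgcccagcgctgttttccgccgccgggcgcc
The element starts 43 bases before the start of Hspa5, 133 before that of Dnajc3, and 176 and 72 before that of Hsp90b1. Dnajb9, Dnajc25 and Dnajc14, also higher in pituitary, do not hold these letters in their windows.

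Genes of ER folding and the unfolded protein response outside the member families went the same way. Of 20 tested probes from a list of 28 such genes, 16 were higher and 1 lower in pituitary on TCDD arrays and 17 higher and 1 lower on vehicle arrays, with medians of 1.26 and 1.25. On vehicle arrays 15 of the higher calls and the 1 lower call held under all 4 scalings. The shares of all probes were 35.8% higher and 28.8% lower on TCDD arrays, and 35.6% and 28.5% on vehicle arrays. The genes named from this list were chosen after their values were seen. Xbp1 (a transcription factor of the response), Creld2, Calr (calreticulin) and Canx (calnexin) are the 4 of 21 list promoters that hold the ER stress element, and their vehicle-array differences were 1.31, 2.01, 0.58 and 0.76. Sec61b (a subunit of the translocation channel) differed by 2.70 and the disulfide isomerase Pdia3 by 1.88, while the ER oxidase Ero1a was lower (-0.73) and Ddit3 (CHOP, the stress-induced transcription factor) did not pass (0.11, adjusted p 0.391). The markers of pituitary endocrine cells moved with this group of genes, and their part in it was not tested.

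**Figure D2:**
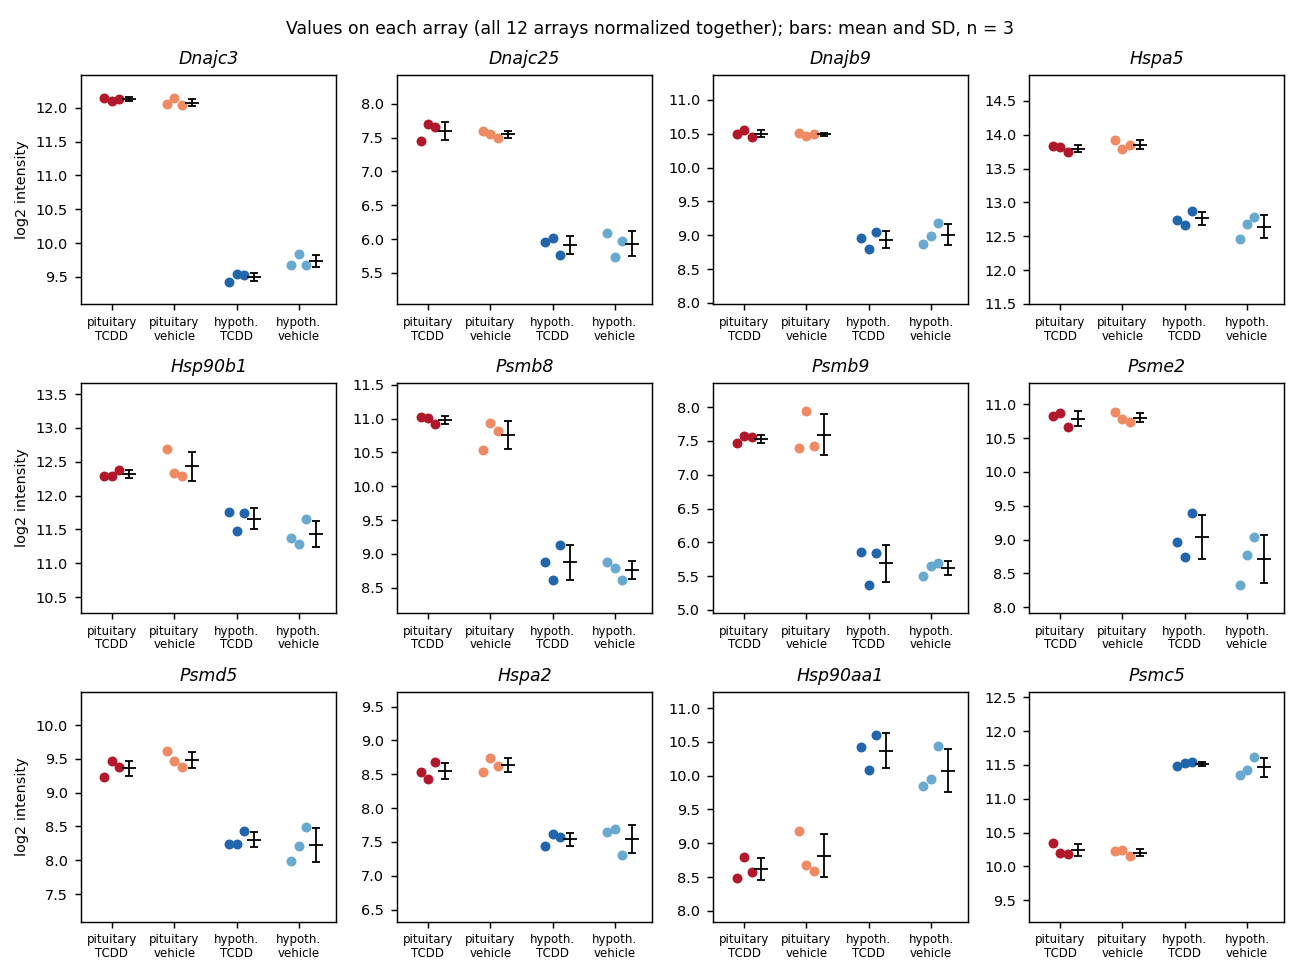
Each panel gives 1 member's log2 intensity on every array, with TCDD and vehicle pituitary arrays left of TCDD and vehicle hypothalamus arrays, points for arrays and bars for mean and SD (n = 3), on vertical axes of equal span. Tissues separate without overlap in all 12 panels, whereas TCDD and vehicle arrays of a tissue lie at similar levels.

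In the proteasome, the inducible subunits and activators stood apart from the constitutive particle. On both sets of arrays all 4 probes of the interferon-inducible beta subunits (Psmb8, Psmb9 and both probes of Psmb10), all 3 activator probes and 3 of 4 assembly-chaperone probes were higher in pituitary, and these 10 calls held under all 4 scalings on vehicle arrays. Psmb8 (LMP7, which replaces Psmb5 in the immunoproteasome) read 11.02, 11.02 and 10.92 in TCDD pituitaries and 10.53, 10.93 and 10.82 in vehicle pituitaries, against 8.88, 8.61 and 9.13 in TCDD hypothalami and 8.88, 8.79 and 8.62 in vehicle hypothalami. The tissues did not overlap. By limma the difference (SE) came to 2.11 ± 0.14 on TCDD arrays and 2.00 ± 0.14 on vehicle arrays, or 4.32-fold and 4.01-fold, with adjusted p of 4.33e-08 and 7.52e-08. Psmb9 (LMP2, which replaces Psmb6) read 7.46, 7.57 and 7.56 in TCDD pituitaries and 7.40, 7.95 and 7.43 in vehicle pituitaries, against 5.85, 5.36 and 5.84 in TCDD hypothalami and 5.51, 5.65 and 5.70 in vehicle hypothalami. It was dim in hypothalamus yet detected on all 12 arrays, and the tissues did not overlap. Pituitary minus hypothalamus gave 1.84 ± 0.16 on TCDD arrays and 1.97 ± 0.16 on vehicle arrays, or 3.59-fold and 3.92-fold, with adjusted p of 5.25e-07 and 2.89e-07. The vehicle-array difference of Psmb9 was 1.09 with no background correction, and its lowest values over the 4 scalings were 0.66 and 0.72 on TCDD and vehicle arrays. The 2 probes of Psmb10 (MECL-1, which replaces Psmb7) gave 1.13 and 1.05 on TCDD arrays and 0.94 and 0.92 on vehicle arrays. Psmb11, the thymic subunit, was detected on 1 pituitary array.

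The activators cap the 20S core and open it. Psme2 (PA28 beta, interferon-inducible) read 10.82, 10.87 and 10.66 in TCDD pituitaries and 10.88, 10.78 and 10.74 in vehicle pituitaries, against 8.97, 8.75 and 9.39 in TCDD hypothalami and 8.33, 8.77 and 9.04 in vehicle hypothalami. Its hypothalamus arrays spread more than its pituitary arrays, and the tissues did not overlap. The log2 tissue difference was 1.75 ± 0.182 on TCDD arrays and 2.09 ± 0.182 on vehicle arrays, or 3.36-fold and 4.26-fold, with adjusted p of 2.84e-06 and 5.65e-07. Psme1, its partner PA28 alpha, differed by 1.34 ± 0.136 and 1.35 ± 0.136, and Psme4 (PA200, a nuclear activator) by 1.38 ± 0.0987 and 1.43 ± 0.0987 (SE, adjusted p at most 2.21e-06). Among the assembly chaperones, Psmd5 (1.05 and 1.26) and Psmd9 (0.86 and 0.62), which help build the ATPase ring of the cap, and Psmg2 (0.73 and 0.70), which helps build the alpha ring, were higher, while Psmg1, the partner of Psmg2, did not pass (0.18 and 0.11). Their lowest values over the 4 scalings were 0.65 and 0.81 for Psmd5, 0.51 and 0.33 for Psmd9 and 0.31 and 0.30 for Psmg2.

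The balance between each inducible catalytic subunit and the constitutive one it replaces was set against itself across arrays, since probes differ in their response and the level of such a ratio has no meaning. The signal of Psmb8 relative to Psmb5 was 6.05-fold higher in pituitary on TCDD arrays and 5.53-fold higher on vehicle arrays, that of Psmb9 relative to Psmb6 4.15-fold and 4.45-fold, and that of Psmb10 relative to Psmb7 3.23-fold and 2.26-fold. In each of the 3 pairs, no pituitary array overlapped a hypothalamus array. The exact two-sided permutation p was 0.1 for each pair and set of arrays, the smallest that 3 arrays against 3 allow, and Benjamini-Hochberg adjustment over these 6 tests leaves it at 0.1. The offset of 16 added to every signal draws such ratios toward 1 for dim probes such as Psmb9.

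**Figure D3:**
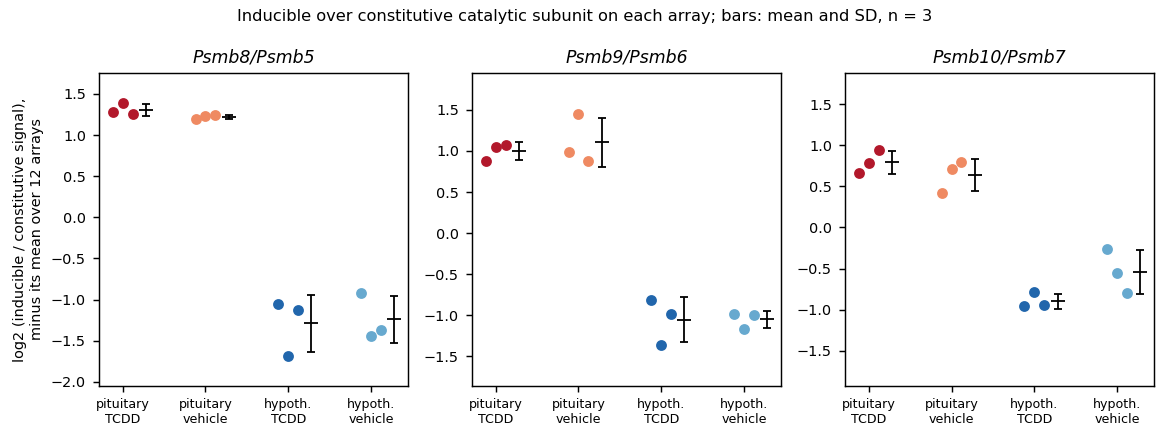
The log2 ratio of the inducible over the constitutive catalytic subunit is plotted on each array as its distance from the pair's mean over the 12 arrays, with TCDD and vehicle pituitary arrays left of TCDD and vehicle hypothalamus arrays (points, arrays; bars, mean and SD, n = 3). All 6 pituitary arrays lie above all 6 hypothalamus arrays in each of the 3 pairs.

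Interferon-responsive promoters are marked by the interferon-stimulated response element, searched as GAAA and GAAA separated by any 2 bases, on both strands. This motif was added after the promoters had been looked at. It occurs in 3.92% of all promoters and in 6 of 38 proteasome promoters (15.8%): those of Psmb8, Psmb10 (2 matches) and Psme2, and of Psma4, Psmb3 and Psmd7. It was also in 2 of 13 ER chaperone promoters (15.4%; Dnajb11 and Dnajc14), 1 of 36 cytosolic and 0 of 8 mitochondrial ones. The first 3 of the proteasome are shown because their genes carry the tissue difference, with the element in capitals. In RefSeq (GRCr8) the windows are chr20:4657012-4657261, minus strand, for Psmb8 (230 bases before to 20 after the start, since its element spans the start), chr19:50743293-50743542, minus strand, for Psmb10, and chr15:33052752-33053001, minus strand, for Psme2, both the 250 bases before the start.
Psmb8: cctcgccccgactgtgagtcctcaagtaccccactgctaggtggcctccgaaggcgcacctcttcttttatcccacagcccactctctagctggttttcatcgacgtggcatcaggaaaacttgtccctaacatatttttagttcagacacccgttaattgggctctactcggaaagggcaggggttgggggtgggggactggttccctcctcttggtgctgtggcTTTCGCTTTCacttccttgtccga
Psmb10: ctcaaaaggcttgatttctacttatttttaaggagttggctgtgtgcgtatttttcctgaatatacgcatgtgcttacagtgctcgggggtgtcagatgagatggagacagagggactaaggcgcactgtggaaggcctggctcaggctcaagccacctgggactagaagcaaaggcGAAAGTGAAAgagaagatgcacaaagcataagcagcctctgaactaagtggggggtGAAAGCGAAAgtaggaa
Psme2: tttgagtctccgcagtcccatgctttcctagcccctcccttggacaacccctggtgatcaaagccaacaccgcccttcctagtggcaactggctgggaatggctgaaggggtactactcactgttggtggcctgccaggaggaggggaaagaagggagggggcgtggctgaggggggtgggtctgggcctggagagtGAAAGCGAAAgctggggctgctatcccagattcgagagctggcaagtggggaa
The letters are absent from the windows of Psmb9, Psme1 and Psme4, which were also higher in pituitary, and Psmb3 and Psmd7, which hold them, were not called on either set of arrays.

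A list of 17 genes of interferon response and antigen presentation was read beside these subunits. On TCDD arrays 7 of its 14 tested probes were higher and 1 lower in pituitary, and on vehicle arrays 11 were higher and 0 lower, 8 of them under all 4 scalings. Over all probes 35.8% were higher and 28.8% lower on TCDD arrays, and 35.6% and 28.5% on vehicle arrays. Named after their values were seen, Irf1 (a transcription factor of the interferon response) differed by 2.40 and 2.28 on TCDD and vehicle arrays, the peptide transporter subunit Tap2 by 1.66 and 1.74, tapasin (Tapbp) by 2.43 and 2.41, and the class II chain RT1-Da by 3.26 and 3.26, whereas B2m did not pass (-0.03 and 0.07). Markers of microglia and leukocytes were mostly lower in pituitary, and their part in these values was not tested. Of 5 tested, 0 were higher and 4 lower in pituitary on both sets of arrays, and their summed signal was 3760 to 4116 in TCDD and 3289 to 4300 in vehicle pituitaries, against 5165 to 5668 in TCDD and 5046 to 6660 in vehicle hypothalami. Of 8 markers of meninges and fibroblasts, 5 were higher and 2 lower in pituitary, and their part in the result was not tested.

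The constitutive 26S particle varied less between the tissues than probes in general. Over its 30 tested probes the SD of the log2 differences was 0.404 on TCDD arrays and 0.402 on vehicle arrays, against 1.10 and 1.09 over all probes. This was not particular to the particle. The SD was 0.32 and 0.27 for the CCT chaperonin, 0.39 and 0.44 for J proteins of the cytosol and nucleus, and 0.57 and 0.49 for mitochondrial chaperones. In the 20S alpha ring 6 of 7 probes were higher in pituitary on vehicle arrays (0.32 to 0.49 for Psma6, Psma7, Psma4, Psma5, Psma2 and Psma1) and 1 on TCDD arrays, and none of these calls held under all 4 scalings. The Psma1 and Psma2 calls ended without replicate 1 of the vehicle pituitaries (0.42 and 0.37) or of the vehicle hypothalami (0.33 and 0.33), and that of Psma2 also without replicate 2 of the vehicle hypothalami (0.46). In the beta ring Psmb2 was higher (0.51 and 0.63), a TCDD-array call lost under another scaling (0.26, adjusted p 0.0897). Psmb5, the chymotrypsin-like site, was lower (-0.49 and -0.46, and up to -0.76 and -0.71 under other scalings). Psmb7, the trypsin-like site and the denominator of the ratio to Psmb10, was lower on TCDD arrays (-0.56, adjusted p 0.00217, under all 4 scalings) and not called on vehicle arrays (-0.24, adjusted p 0.122). The vehicle-array call of Psmb5 ended without replicate 2 of the vehicle hypothalamus (-0.35, adjusted p 0.0504). Of the 10 non-ATPase subunits of the 19S cap tested, 2 were higher and 2 lower on TCDD arrays and 2 higher and 0 lower on vehicle arrays, and of these the 2 lower calls held under all 4 scalings.

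The ATPases of the 19S cap, which unfold substrates and thread them into the core, included the lowest value of the particle, that of Psmc5. Of the 5 tested besides Psmc6, 0 were higher and 3 lower in pituitary on each set of arrays, and the 3 vehicle-array calls, Psmc5, Psmc1 and Psmc3, held under all 4 scalings. Psmc5 read 10.34, 10.20 and 10.18 in TCDD pituitaries and 10.22, 10.24 and 10.15 in vehicle pituitaries, against 11.48, 11.53 and 11.55 in TCDD hypothalami and 11.35, 11.42 and 11.62 in vehicle hypothalami. All pituitary arrays were more than 1 log2 unit below all hypothalamus arrays. By limma the difference (SE) came to -1.28 ± 0.0936 on TCDD arrays and -1.26 ± 0.0936 on vehicle arrays, or 2.43-fold lower and 2.4-fold lower, with adjusted p of 1.05e-07 and 1.28e-07. Psmc1 differed by -0.57 ± 0.083 and -0.70 ± 0.083 (log2 difference, SE), while Psmc4 did not pass (0.03 and 0.10). Psmc6, the remaining ATPase, was detected on the 3 TCDD hypothalamus arrays alone, so the filter fixed its direction and its calls are no support. It was at least 1.05-fold lower in pituitary on TCDD arrays, and no fold can be given on vehicle arrays. Of 15 probes of ubiquitin and proteasome partners outside the families, 5 were higher and 3 lower on TCDD arrays and 4 higher and 4 lower on vehicle arrays, with 0 and 4 of the vehicle-array calls holding under all 4 scalings.

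Cytosolic chaperones went in both directions, as probes in general did. Of 36 tested probes, 9 were higher and 11 lower on TCDD arrays (25% and 30.6%, against 35.8% and 28.8% of all probes). On vehicle arrays 11 were higher and 13 lower (30.6% and 36.1%, against 35.6% and 28.5%). Under all 4 scalings, 5 higher and 13 lower calls held on vehicle arrays (13.9% and 36.1%, against 26.1% and 27.2% of all probes). Hsp90aa1, the inducible cytosolic HSP90 and a partner of the aryl hydrocarbon receptor, read 8.48, 8.80 and 8.57 in TCDD pituitaries and 9.18, 8.68 and 8.59 in vehicle pituitaries, against 10.43, 10.09 and 10.59 in TCDD hypothalami and 9.84, 9.95 and 10.44 in vehicle hypothalami. Its arrays spread more than those of most members, and all pituitary arrays were below all hypothalamus arrays. Pituitary minus hypothalamus gave -1.75 ± 0.194 on TCDD arrays and -1.26 ± 0.194 on vehicle arrays, or 3.37-fold lower and 2.39-fold lower, with adjusted p of 4.94e-06 and 9.45e-05. Hspa2, an HSP70 best known from spermatogenesis, was the only one of the 2 HSP70 probes in the set that was tested, and read 8.53, 8.43 and 8.68 in TCDD pituitaries and 8.54, 8.74 and 8.63 in vehicle pituitaries, against 7.43, 7.61 and 7.57 in TCDD hypothalami and 7.65, 7.68 and 7.31 in vehicle hypothalami. It was higher on every pituitary array. The log2 tissue difference was 1.01 ± 0.118 on TCDD arrays and 1.09 ± 0.118 on vehicle arrays, or 2.01-fold and 2.12-fold, with adjusted p of 8.02e-06 and 4.21e-06. The lowest values of Hspa2 over the 4 scalings were 0.52 and 0.58.

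Of the 5 tested relatives and exchange factors of HSP70 besides Hspa12b, 2 were lower and 1 higher in pituitary on TCDD arrays and 3 lower and 1 higher on vehicle arrays. Hspa4l, an HSP110 exchange factor, differed by -0.89 ± 0.105 and -0.81 ± 0.105, and Hspbp1, which releases nucleotide from HSP70, by -0.51 ± 0.0942 and -0.57 ± 0.0942 (SE; -0.77 on TCDD arrays at its largest over the 4 scalings). Hspa14, an HSP70 relative at the ribosome, was higher (0.81 and 0.72; 0.53 on TCDD arrays at its lowest over the scalings). Hspa12b, known from endothelial cells, was not well above background on any pituitary array and passed the filter through hypothalamus arrays, which in part fixed its direction. It was at least 1.15-fold lower in pituitary on TCDD arrays and at least 1.24-fold lower on vehicle arrays. Of 3 endothelial markers tested, 2 were lower on TCDD arrays and 3 on vehicle arrays, with 2 under all 4 scalings on each. Their part in the Hspa12b values was not tested. Of the small heat shock proteins, Hspb1 (HSP27) was higher in pituitary (0.88 and 0.81), as was Hspbap1, whose product binds Hspb1 (1.36 and 0.92), and Hspb8 did not pass (0.15 and 0.01). The lowest values over the 4 scalings were 0.54 and 0.51 for Hspb1 and 0.58 and 0.38 for Hspbap1.

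Of 17 tested J proteins of the cytosol and nucleus, 2 were higher and 6 lower on TCDD arrays and 5 higher and 7 lower on vehicle arrays; 1 and 7 of the vehicle-array calls held under all 4 scalings. The lower ones included Dnajc5 (cysteine-string protein of synaptic vesicles; -0.55 ± 0.106 and -0.75 ± 0.106, SE) and Dnajc6 (auxilin, which uncoats clathrin vesicles at synapses; -0.66 ± 0.109 and -0.61 ± 0.109). The others lower on vehicle arrays were Dnajc27, Dnajc7, Dnajb5, Dnaja4 and Dnajc2. Over the 4 scalings these ran from -0.26 to -0.86, -0.54 to -0.74, -0.30 to -0.78, -0.34 to -0.51 and -0.31 to -0.52, in that order. The smallest differences of Dnajc5 over the 4 scalings were -0.31 and -0.39. The summed neuron markers were 9477 to 10411 in TCDD and 8593 to 10047 in vehicle pituitaries, against 42158 to 47541 in TCDD and 38212 to 43986 in vehicle hypothalami, and their part in these differences was not tested. The heat-induced Dnajb1 was higher by 0.29 and 0.29, a direction that turned to -0.02 on TCDD arrays under median scaling. Its calls also ended without any of 4 single arrays on the vehicle side (replicates 2 and 3 of the vehicle pituitaries, replicate 1 of either hypothalamus group; 0.19 to 0.31) and of 5 on the TCDD side (replicates 1 and 3 of the TCDD pituitaries and any TCDD hypothalamus; 0.26 to 0.30). The CCT chaperonin, which folds actin and tubulin, was near balance: Cct6a (0.43 and 0.27) and Cct4 (0.21 and 0.20) were higher, Cct3 was lower (-0.49 and -0.46, and up to -0.79 and -0.71 under other scalings), and of these only the Cct3 call held under all 4 scalings on vehicle arrays, where Cct4 turned to -0.04 with median scaling and -0.0011 in the authors' normalized table. The vehicle-array call of Cct6a ended without replicate 1 or 3 of the vehicle pituitaries or replicate 1 or 2 of the vehicle hypothalami (0.20 to 0.28), and that of Cct4 without any single array but replicate 3 of the TCDD hypothalami (0.18 to 0.21). The heat shock element, searched as GAANNTTC and TTCNNGAA, was in 14 of 36 cytosolic chaperone promoters (38.9%), 3 of 8 mitochondrial, 1 of 13 ER and 4 of 38 proteasome promoters, against 15.9% of all promoters. Cochaperones and heat shock factors outside the families gave 6 higher and 8 lower of 19 probes on TCDD arrays and 6 higher and 5 lower on vehicle arrays.

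The chaperonin pair of the mitochondrial matrix, Hspd1 (HSP60) and Hspe1 (HSP10), showed no call between the tissues. Their differences were 0.05 and 0.04 on TCDD arrays and -0.03 and 0.07 on vehicle arrays (95% intervals on vehicle arrays -0.20 to 0.15 and -0.14 to 0.28), and the signs of all but the vehicle-array Hspd1 value turned under median scaling. Hspa9 (mortalin, the matrix HSP70) was higher by 0.31 and 0.32, a difference not called under the 3 other scalings and, on TCDD arrays, without replicate 2 of the TCDD hypothalami (0.275, adjusted p 0.051). Dnajc19, of the import motor, was higher (0.64 and 0.63, and at the lowest over the scalings 0.35 and 0.41) and Dnajc11, of the cristae-organizing complex, lower (-0.75 and -0.67), both under all 4 scalings on vehicle arrays. Of 6 partners in mitochondrial folding, 1 was higher and 2 lower on both sets of arrays.

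The comparison of TCDD with vehicle asks whether exposure in the womb left a difference in these genes in the adult tissue. In pituitary, limma called 0 of 94 member probes at an adjusted p under 0.05, as it called 0 of all 10251 probes (0%). At an unadjusted p under 0.05 there was 1 member, which was lower, against 6.03% of all probes (2.72% higher and 3.31% lower). The groups did not overlap for 5 members that were higher and 1 that was lower, against 11.1% of all probes (5.37% higher and 5.72% lower). Log2 differences of members ran from -0.53 to 0.27, with medians of 0.00 for cytosolic, -0.01 for ER and 0.00 for mitochondrial chaperones and 0.03 for the proteasome. The 95% intervals of all 94 fitted differences lay within a 2-fold change and those of 90 within a 1.5-fold change. These intervals do not bound the change of Psmc3ip, whose signal with TCDD was at background.

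The member with p under 0.05 was Psmc3ip, which is no proteasome subunit. It read 5.46, 5.54 and 5.30 in TCDD pituitaries, against 6.17, 5.99 and 5.73 in vehicle pituitaries (log2 intensity, pituitary arrays normalized together). All TCDD arrays were below all vehicle arrays, and the probe was not well above background on any of the 3 TCDD arrays. It passed the detection filter through the vehicle arrays, where it is high. The signal was at least 1.32-fold lower with TCDD, with a limma p of 0.00309 and an adjusted p of 0.556. The 5 members that were higher without overlap were Dnajc4, Psmb10, Psmb1, Psmc1 and Cct7, at 0.09 to 0.24. The ER members that were higher in pituitary than in hypothalamus were not called for TCDD: Hspa5 differed by -0.06 (95% interval -0.25 to 0.14) and Dnajc3 by 0.05 (-0.14 to 0.25). Psmb8 differed by 0.21 (-0.05 to 0.48) and Hsp90aa1 by -0.20 (-0.59 to 0.18). Beside these values, the summed signal of 8 meninges and fibroblast markers was 15457 to 18568 in TCDD pituitaries and 20650 to 24303 in vehicle pituitaries, without overlap (2 of 8 at an unadjusted p under 0.05, 0 adjusted, limma), and its part in them was not tested.

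In hypothalamus, 0 of 99 member probes were called, against 1 of all 11246 probes (0.00889%). At an unadjusted p under 0.05 there were 4 members, 1 higher and 3 lower, against 5.37% of all probes (2.69% in each direction), and the smallest adjusted p was 0.883. The groups did not overlap for 3 higher and 4 lower members, against 10.9% of all probes (5.17% higher and 5.72% lower). Differences ran from -0.40 to 0.40, and the intervals of all 99 fitted differences lay within a 2-fold change and those of 89 within a 1.5-fold change, which does not bound the change of Psmc6, at background on vehicle arrays. Of 41 proteasome probes 30 had a positive difference, with a median of 0.06, against 5703 of all 11246 probes and a median of 0.00. That median was 0.0073 without replicate 1 and 0.11 without replicate 3 of the vehicle hypothalami, and 0.02 without replicate 3 of the TCDD hypothalami. The 41 probes were read on the same arrays, so the number of positive ones is no independent support. The 30 include Psmc6, which passed the filter through the TCDD arrays.

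Psmc6 (an ATPase of the 19S cap) had the smallest p. It read 5.43, 5.85 and 5.61 in TCDD hypothalami, against 5.16, 5.26 and 5.26 in vehicle hypothalami (log2 intensity, hypothalamus arrays normalized together). All TCDD arrays were above all vehicle arrays, and no vehicle array detected it, so it passed the filter through the TCDD arrays, where it is high. The signal was at least 1.26-fold higher with TCDD (p 0.0144, adjusted p 0.883). Hspbap1 read 6.72, 6.61 and 6.56 in TCDD hypothalami, against 6.89, 6.94 and 6.84 in vehicle hypothalami, without overlap and with a difference of -0.26 (p 0.0368, adjusted p 0.883 by limma). Dnajb14, an ER membrane J protein, read 7.15, 7.06 and 7.05 in TCDD hypothalami, against 7.55, 7.25 and 7.31 in vehicle hypothalami, also without overlap (-0.28, p 0.0414, adjusted p 0.883 by limma). Dnajc28, the remaining one, overlapped (-0.40) and was detected on 1 TCDD and 3 vehicle arrays. Hspa5 differed by 0.12 (95% interval -0.16 to 0.39), Dnajc3 by -0.23 (-0.46 to 0.01), Hsp90aa1 by 0.29 (-0.15 to 0.73) and Psme2 by 0.32 (-0.18 to 0.82).

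Summed signals of markers of neighbouring brain regions were read beside these values, without a test of the sums. The summed signal of 5 thalamus markers was 2029 to 4107 on TCDD arrays and 1670 to 1988 on vehicle arrays, and that of 8 striatum markers 7032 to 8647 on TCDD arrays and 8722 to 16840 on vehicle arrays. Neither pair of ranges overlapped, a separation that 10.9% of all single probes also showed, and the gaps between the ranges were small. Meninges and fibroblast markers spread widely, at 16696 to 43002 on TCDD arrays and 33793 to 43326 on vehicle arrays. Their part in the TCDD values of members was not tested.

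**Figure D4:**
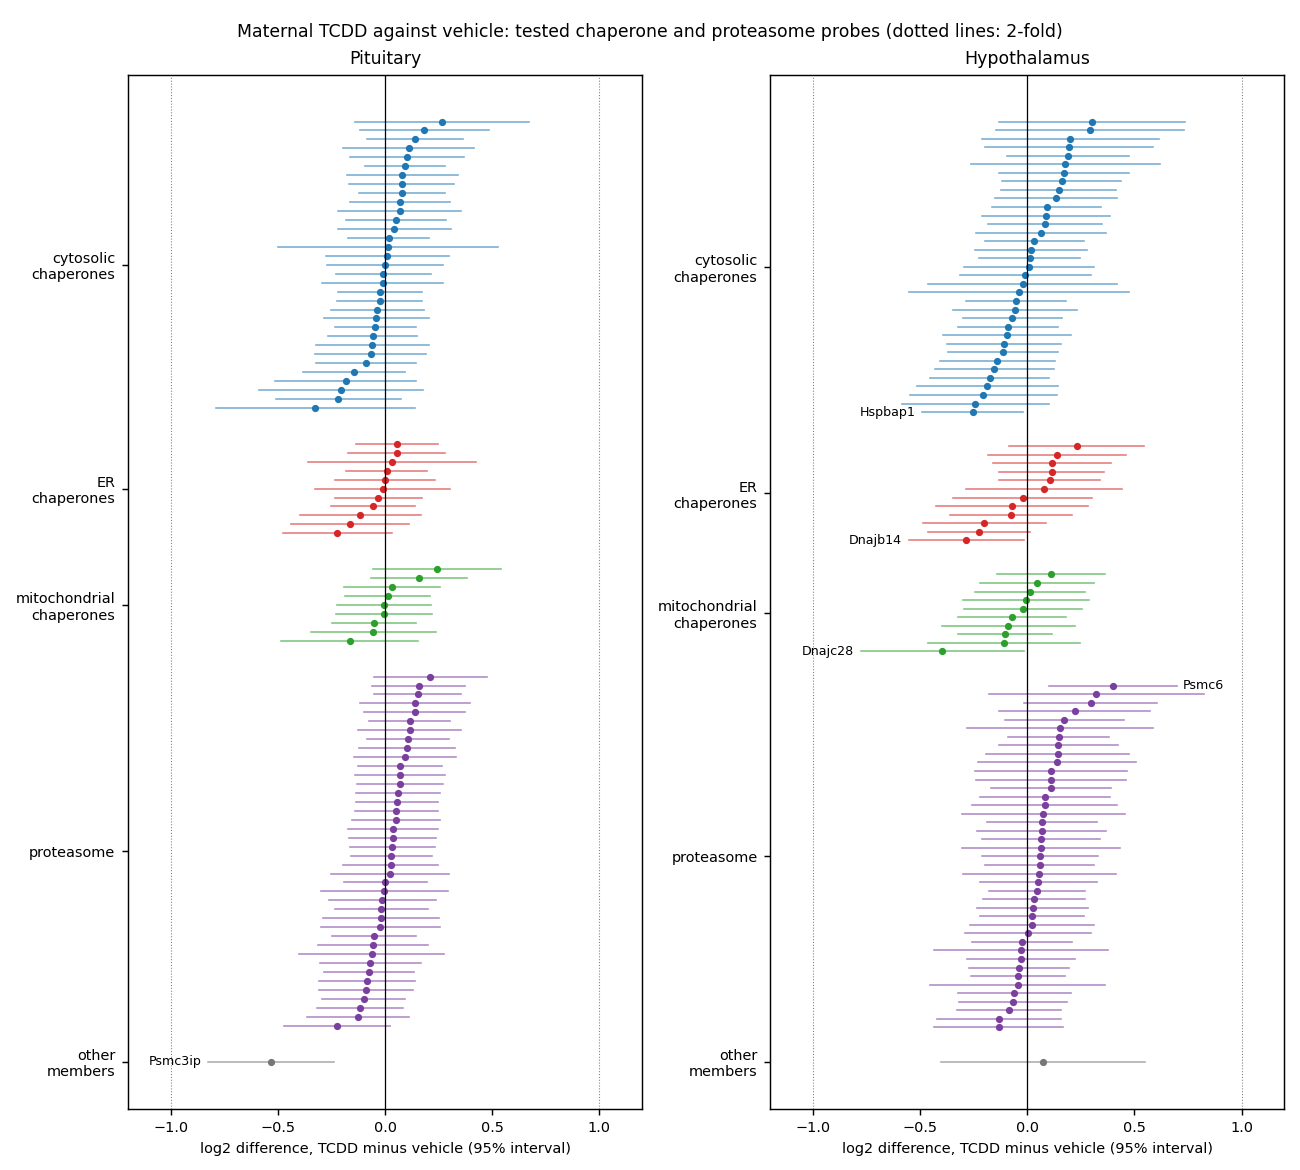
Each tested member probe is a point at its log2 difference between TCDD and vehicle arrays with its 95% interval, sorted within its compartment, for pituitary (left) and hypothalamus (right), with dotted lines at 2-fold. All points lie between the dotted lines with their intervals, and the named ones have an unadjusted p under 0.05.

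The effects of TCDD in pituitary and hypothalamus were also set against each other in the fit of all 12 arrays. The interaction term called 0 of 100 members and 0 of 12071 probes (0%). At an unadjusted p under 0.05 there were 6 members, against 6.17% of all probes (3.03% with a positive and 3.14% with a negative term). The TCDD difference was higher in pituitary than in hypothalamus for Dnajc28, Hspbap1 (0.44) and Dnajc3 (0.28), and lower for Psmc3ip, Psmc6 and Dnajb11 (-0.34). Dnajc28, Psmc3ip and Psmc6 were each at background on all 3 arrays of at least 1 group, so their terms carry no size, and each passed the filter through groups where it is high. The smallest adjusted p of a member was 0.72 (limma). The intervals of these differences were wider, with a median half-width of 0.35 on the log2 scale.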

How the data were processed

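Signal intensity and a detection p-value per probe and array were deposited in a table that the authors had not normalized, per the file headers; their scanner software is not known here. A second deposited table of intensity values, normalized by the authors for each tissue on its own per the labels' series text, served as an alternative. Probes were named through the platform annotation and RefSeq (GRCr8), which held 113 of the 114 member probes. Intensities were background-corrected from the detection p-values (limma 3.58.1 nec, offset 16, in R 4.3.3), brought to common quantiles and log2 transformed, by tissue for TCDD and over 12 arrays for tissues. Each probe detected on at least 3 arrays was fitted with lmFit and eBayes of limma, and two-sided p-values received Benjamini-Hochberg adjustment over all probes tested. The offset draws folds of dim probes toward 1, and 3 arrays per group limit precision. A probe undetected on a group's 3 arrays gives a bound, in which each of these arrays counts with the lowest signal of any detected probe or with its own signal, whichever is higher, and the mean of these is set against that of the brighter group.

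Members and lists were chosen with earlier results of these data known. Members were named from a fixed set and from the smallest TCDD p-values. The up to 2 most positive and up to 2 most negative vehicle-array tissue calls of each role were also eligible. Dnaja1, Dnajc21, Dnajc30, Psmd2 and Psmd11 were eligible as such calls and are not described. Other members are named where a count is small. Psma4, Psma5, Psma6, Psma7, Psmc3, Psmg1, Psmc4, Hspa13, Hspb8 and list genes were named after their values were seen. Tissue values of Dnaja4, Dnajb5, Dnajc2, Dnajc6, Dnajc7, Dnajc14, Hspbp1, Psmd9 and Psme1 were also given outside the rule, with the values seen. The alternatives were 2 other background settings, 2 scalings, 2 detection filters, a robust trend, array weights, 1 probe per gene, blocks, the authors' table and leaving out each array. The tests of TCDD against vehicle were tried on simulated data, with changes set in bright probes detected on all arrays of the tissue. The tests between tissues and of the interaction were not simulated.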

Additional observations from a re-analysis of the deposited data

How the results depend on the processing

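The number of tissue calls per direction depended on scaling. Members higher on vehicle arrays numbered 41, against 24 with median scaling, 26 with cyclic loess and 27 in the authors' table, and on TCDD arrays 34, against 21 with median scaling. The other 197 of 201 counts stayed within 1.5 times, and 0 members were called for TCDD or the interaction under any setting run. For single members, 2710 of 2865 values kept direction and side of the threshold, 75 lost and 3 gained a call, and 77 changed sign; the cause was not tested. With median scaling the reversed values were -0.0324 (Dnajb9) and -0.0133 (Hspe1) for TCDD in pituitary, -0.0305 (Dnajb9), -0.0081 (Psmb8), -0.0529 (Dnajb1) and -0.0634 (Hspb1) for the interaction, -0.12 (Hspe1) and -0.0383 (Cct4) between tissues on vehicle arrays, and -0.0034 (Hspa9), -0.22 (Hspe1), -0.0167 (Dnajb1) and -0.12 (Hspd1) on TCDD arrays. With cyclic loess they were -0.0522 (Hspe1, vehicle), -0.0841 (Hspe1, TCDD), -0.0886 (Hspd1, TCDD) and -0.008 (Dnajb1, interaction), and in the authors' table -0.0753 (Hspe1, vehicle), -0.0011 (Cct4, vehicle), -0.11 (Hspe1, TCDD), -0.0333 (Hspd1, TCDD) and -5e-04 (Dnajb1, interaction). With array weights they were 0.0561 (Hspa9) and -0.0036 (Hspe1) for TCDD in pituitary, -4e-04 (Psmb5) for TCDD in hypothalamus and 0.0796 (Psmb5) for the interaction. Leaving out an array gave 50 to 58 member calls between tissues on TCDD arrays and 52 to 63 on vehicle arrays. It also gave either sign to some differences that were not called, with ranges of -4e-04 to 0.18 for Dnajb1, -0.0171 to 0.0305 for Dnajb9, -0.19 to 0.0124 for Hsp90b1, -0.0755 to 0.0402 for Hspa9, -0.0272 to 0.0428 for Hspe1 and -0.16 to 0.11 for Psmb9 for TCDD in pituitary, -0.0077 to 0.13 for Dnajb1, -0.15 to 0.0056 for Dnajb9, -0.0497 to 0.0671 for Hspa9, -0.0447 to 0.10 for Hspe1, -0.11 to 0.005 and -0.0462 to 0.12 for Psmb10's probes, -0.0167 to 0.24 for Psmb8, -0.0177 to 0.25 for Psmb9 and -0.0823 to 0.32 for Psmc3ip for TCDD in hypothalamus, -0.0787 to 0.10 for Dnajb1, -0.0888 to 0.0458 for Hspa9, -0.0817 to 0.21 for Hspb1, -0.087 to 0.0554 for Hspe1, -0.14 to 0.0813 for Psmb5, -0.0236 to 0.24 for Psmb8 and -0.29 to 0.0485 for Psmb9 for the interaction, and -0.0165 to 0.13 for Hspe1 between tissues on TCDD arrays. Dim probes had smaller differences with no background correction, as given for Psmb9.

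Whether the replicate numbers pair the arrays is not settled by these values. Deviations from the group mean of same-numbered TCDD and vehicle arrays correlated at 0.0929, 0.225 and 0.0776 in pituitary and 0.115, 0.0791 and 0.244 in hypothalamus. Arrays of other numbers gave -0.154 to 0.0452 in pituitary and -0.372 to 0.255 in hypothalamus. A replicate block moved the probes at an unadjusted p under 0.05 (limma) from 618 to 633 in pituitary and from 604 to 864 in hypothalamus. With the replicate block 0 and 0 members were called for TCDD, and 56 (35 higher, 21 lower) and 61 (39 higher, 22 lower) between tissues on TCDD and vehicle arrays. Title codes shared across tissues, as a random block, had a consensus correlation of -0.141 and gave 54 and 62 calls.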

Other observations

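The antioxidant response element, searched as TGACNNNGC, was in 8 of 38 proteasome promoters (21.1%), against 12.1% of all promoters and 5 of 36 cytosolic chaperone promoters (13.9%). Cryab, a small heat shock protein whose symbol falls outside the families, was the cochaperone list's extreme, at -3.45 on TCDD and -3.82 on vehicle arrays (log2, pituitary minus hypothalamus). Fkbp5, a glucocorticoid-induced HSP90 cochaperone, was higher in pituitary by 2.12 and 1.58. Both were chosen after their values were seen. All 13 tested probes of the interferon and antigen presentation list had a positive difference with TCDD in hypothalamus (median 0.29, against 0.00 over all probes). By limma 3 had an unadjusted p under 0.05 (against 5.37% of all probes) and 0 an adjusted p under 0.05. The probes were read on the same arrays, so their number is no independent support. The summed signal of the list overlapped, at 14795 to 19170 on TCDD arrays and 13298 to 16298 on vehicle arrays. In pituitary 12 of 14 were positive (median 0.10), with 3 at an unadjusted p under 0.05 (limma, against 6.03% of all probes) and 0 adjusted. The summed signal overlapped there too, at 23941 to 25134 on TCDD arrays and 22179 to 24409 on vehicle arrays.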
